A study of Homo sapiens with 10 samples.

Results

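The peaks described here are HSF1 ChIP-seq peaks next to human centromeres and their satellite arrays. A peak belonged to this set if its midpoint lay in 1 of 13 hg19 windows of 148 Mb in all, and 411 of the 8124 peaks of the 6 lists did (5.06%). The windows were chr1 120 to 150 Mb, chr2 87 to 98, chr4 47 to 54, chr5 45 to 51, chr7 56 to 64, chr9 38 to 72, chr10 37 to 44, chr16 31 to 48, chr17 20 to 27, chr18 14 to 20, chr20 25 to 31, chr21 9 to 16 and chr22 16 to 18. The rule used position alone, and a window holds ordinary gene-bearing sequence as well as the edges of satellite arrays. The windows were not checked against repeats, so the peaks are called window peaks here and not satellite peaks. Of the 411, 62 lay less than 1 Mb inside a window edge and 61 further peaks lay less than 1 Mb outside one, so the edges do not follow a drop in peak number.

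HCT116 is an established human colon cancer line, used unmodified (WT) or with FBXW7 knocked out (KO). Both lines were left untreated or kept at 42 °C for 1 h, and chromatin was precipitated with an antibody to HSF1. There were 2 libraries of heat-shocked WT, 2 of heat-shocked KO, 1 of untreated WT and 1 of untreated KO, each with its own peak list. Where 3 values are given for a line below, they stand in the order heat shock replicate 1, heat shock replicate 2, untreated, and pairs of heat shock values in the order replicate 1, replicate 2. FBXW7 is the subunit of a ubiquitin ligase that picks its substrates, and the labels do not say whether the knockout is 1 clone or whether replicates are separate cultures.

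HSF1 is the main transcription factor of the heat shock response. On heat stress it forms trimers, moves onto heat shock elements at chaperone genes, and in human cells also gathers on pericentromeric satellite III arrays, best known on the long arm of chromosome 9. There it forms nuclear stress bodies, and the arrays are transcribed into satellite III RNA. Most of these arrays are unsequenced gaps in hg19, so reads from inside them have no place of their own in that build. The peaks below thus speak for the assembled sequence around the arrays.

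Lists held 79 to 3257 peaks, and their read depth is unknown. Scores are the authors' peak scores, used to rank peaks within a list. KO peaks were far narrower than WT peaks throughout (medians of the other peaks 155 to 181 bp against 1433 to 1601 bp), so numbers of peaks were not obtained at one resolution in the lines. How reads with several possible positions were aligned is not given in the sources used here. This bears on duplicated sequence, and its part in the results was not tested.

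Window peaks made up a larger part of each WT list than of each KO list. They numbered 27 of 225 in WT heat shock replicate 1 (12.0%, exact binomial 95% interval 8.06 to 16.98), 12 of 131 in replicate 2 (9.16%, 4.82 to 15.5) and 10 of 79 in untreated WT (12.7%, 6.24 to 22.05). In KO they numbered 89 of 1566 (5.68%, 4.59 to 6.95) and 121 of 3257 (3.72%, 3.09 to 4.42) after heat shock and 152 of 2866 untreated (5.30%, 4.51 to 6.19). The lines did not overlap: the mean share was 11.3 ± 1.86% in WT and 4.90 ± 1.04% in KO (SD, n = 3 each), with p = 0.1 in a two-sided exact permutation test, the least that 3 libraries against 3 can give, and 0.2 after Benjamini-Hochberg adjustment over the 4 contrasts of the lines. In absolute number the order was the opposite, with 362 window peaks in the KO lists and 49 in the WT lists. The difference between the lines, −6.37 percentage points, was −4.23 without the chromosome 21 window and −3.62 without the peaks near the long peak-free stretches described below. Among the 79 peaks with the best scores, 13, 10 and 10 were window peaks in the WT lists and 2, 1 and 0 in the KO lists. These 79 are the whole untreated WT list but only the top of each KO list, so this is a description of unlike parts of the lists. By covered length, window peaks took 16.9, 14.4 and 21.8% of the WT lists and 8.44, 5.11 and 6.51% of the KO lists. Intervals cover counting error only. They treat peaks as independent, and window peaks were closely packed (below), so they may be too narrow.

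**Figure D1:**
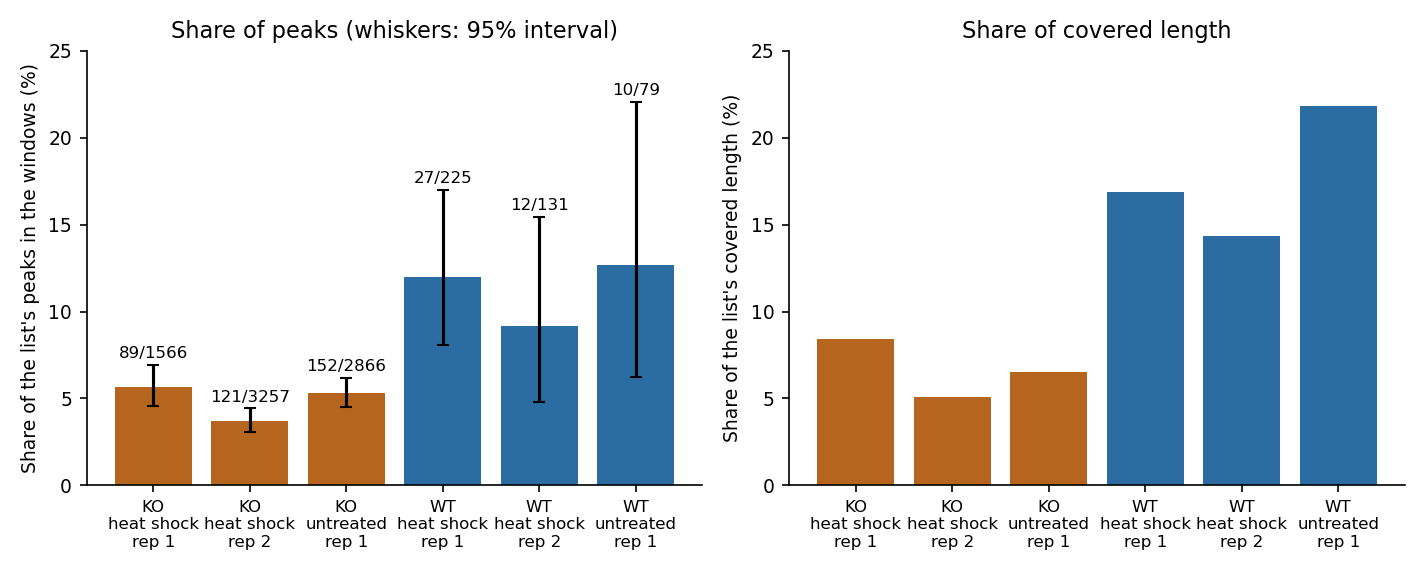
Share of each list's peaks (left, %) and of its covered length (right, %) that lay in the 13 windows; orange bars are KO and blue bars WT libraries, whiskers are exact binomial 95% intervals and the fractions are peaks in the windows over all peaks. The WT shares of 9.16 to 12.7% of peaks all lie above the KO shares of 3.72 to 5.68%.

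The peaks were unevenly spread over the 13 windows. Chromosome 21 had the most, with 11, 24 and 35 peaks in the 3 KO libraries and 9, 5 and 1 in the 3 WT libraries. Chromosome 16 had 54 peaks over the 6 lists, chromosome 2 had 52, chromosome 17 had 39, chromosome 1 had 38, chromosome 4 had 35 and chromosome 9 had 34. At the low end, the chr5, chr7 and chr22 windows held 8, 9 and 3 peaks, all of them in KO lists, which held 362 of the 411 window peaks. Untreated WT had a peak in 8 windows, and WT heat shock replicates 1 and 2 had one in 9 and 7.

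On chromosome 9, the chromosome best known for stress-induced satellite III, window peaks numbered 5, 9 and 18 in the 3 KO libraries. WT lists held 0, 1 and 1. Both heat shock lists of KO were thus below their untreated list, and WT showed no more peaks after heat shock. Both WT peaks were at 1 place, chr9:66857775-66862844, which scored 115 in WT heat shock replicate 2 (rank 20) and 64.3 in untreated WT (rank 46). All 3 KO lists had a narrower peak there too.

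**Figure D2:**
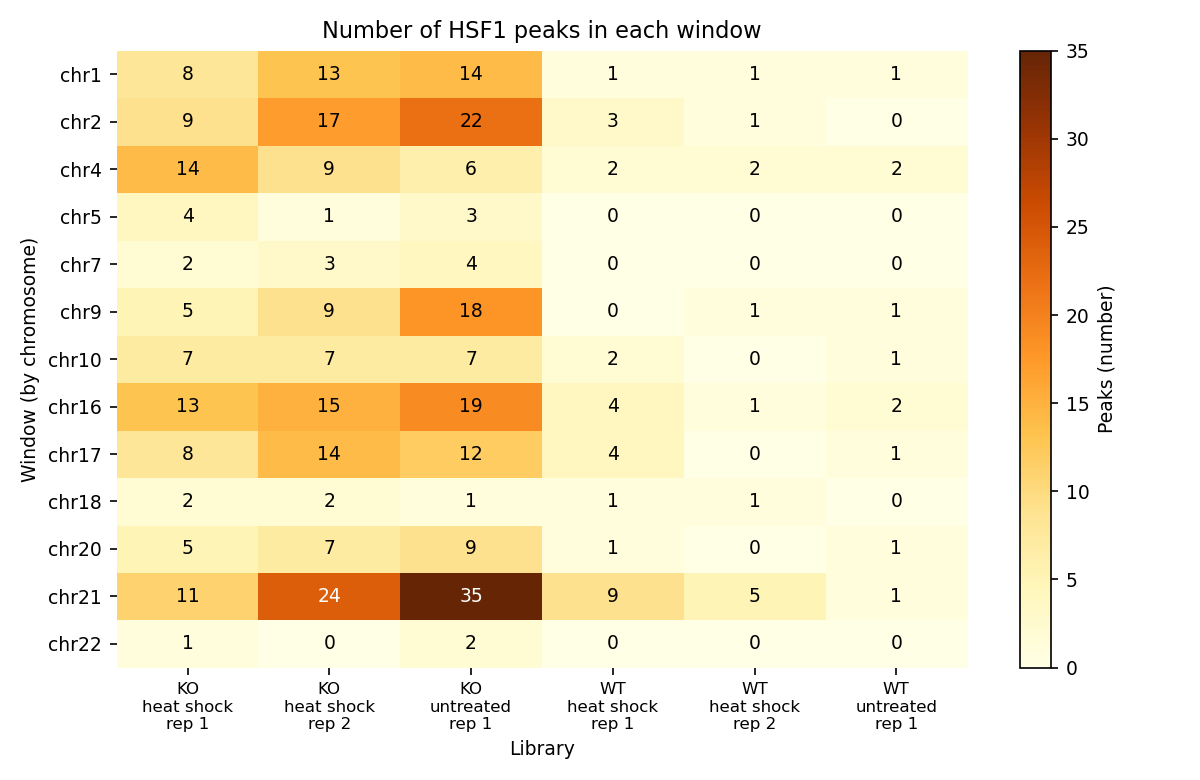
Number of HSF1 peaks (cell value and color) in each of the 13 windows (rows, named by chromosome) for each library (columns). The chr21 window is the fullest, with 35 peaks in untreated KO. The chr5, chr7 and chr22 windows are empty in the 3 WT libraries, which hold 49 of the 411 window peaks.

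Window peaks were packed into a few short stretches. Linked at gaps under 100 kb over all lists, the 411 peaks formed 78 clusters, and the 5 fullest, 501 kb in sum, held 180 of them (43.8%). Those 5 held 32 of the 49 WT window peaks (65.3%) and 148 of the 362 KO ones (40.9%). They were chosen by number of peaks, so these shares are a description. The fullest was chr21:11051305-11187341, with 6, 18 and 28 peaks in the KO libraries, 8 and 4 in heat-shocked WT and 0 in untreated WT. It was followed by chr16:33866234-33983315 with 39 peaks (8, 9, 15, 4, 1 and 2, KO before WT), which had peaks in all 6 libraries. Then came chr2:91759757-91821873 with 35 (6, 10, 15, 3, 1 and 0), chr17:21208240-21339767 with 22 (4, 7, 8, 3, 0 and 0) and chr4:49102219-49156395 with 20 (9, 3, 2, 2, 2 and 2). The last was the only one of the 5 in which both KO heat shock lists held more peaks than untreated KO.

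Part of the window peaks lay near the border of a long stretch with no peak in any list. Only stretches between 2 window peaks were considered, not those running to a window edge. The longest in a window exceeded 1 Mb in 10 of the 13 windows, up to 21.5 Mb on chromosome 9 (chr9:44993289-66458351) and 21.05 Mb on chromosome 1 (chr1:121485436-142535217). It was 11.1 Mb on chromosome 16. Over all 13 windows, 133 of the 411 window peaks (32.4%) lay within 100 kb of a border of the longest stretch. On chromosomes 18 and 22, where that stretch was only 0.266 and 0.154 Mb, all 7 and 3 peaks did. The number was 37 of 52 on chromosome 2 and 16 of 38 on chromosome 1, against 3 of 34 on chromosome 9 and 3 of 54 on chromosome 16. No such share was computed for other peaks. The borders are drawn by peaks themselves, so at least 1 peak lies at each by construction. Over the whole windows, these stretches included, WT lists had 0.182, 0.0811 and 0.0676 window peaks per Mb against 0.0706, 0.0424 and 0.0246 elsewhere. KO lists had 0.601, 0.818 and 1.03 against 0.527, 1.12 and 0.968, so that whole-window density was below that elsewhere in KO heat shock replicate 2. Without the longest stretch of each window, window density was 1.28, 1.75 and 2.19 in KO and 0.390, 0.173 and 0.144 in WT. In each library this was above the density elsewhere. The stretches were picked for holding no peak, so leaving them out could only raise the density.

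Within every library, a larger share of window peaks than of other peaks had a close neighbour. A neighbour of the same list within 5 kb was found for 29 of 89, 51 of 121 and 90 of 152 window peaks in the KO libraries (32.6, 42.1 and 59.2%), against 11.2, 9.69 and 11.6% of the other peaks. In the WT libraries it was found for 12 of 27, 2 of 12 and 2 of 10 (44.4, 16.7 and 20%), against 8.08, 6.72 and 5.80%. In WT heat shock replicate 2 and in untreated WT, the 2 peaks were each other's neighbours. The mean difference was 26.99 ± 14.3 percentage points, in the same direction in 6 of 6 libraries (SD, n = 6; exact sign-flip permutation test, two-sided, p = 0.0312, the smallest possible, and 0.0625 after Benjamini-Hochberg adjustment over 4 measures). With peaks closer than 1000 bp joined, the mean difference in neighbours was 18.7 points. None of the 4 measures, here and below, passed an adjusted p of 0.05. The libraries share the same genome and the same stretches, so they are not 6 independent samples of sites.

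Window peaks were also compared between the lines. A single wide WT window peak often covered several narrow KO peaks. Of the WT heat shock replicate 1 window peaks that overlapped untreated KO, 9 of 15 covered 2 or more of its peaks, against 18 of 97 for other WT peaks. In WT heat shock replicate 2 this was 5 of 9 against 9 of 67, and in untreated WT 5 of 7 against 7 of 60. The share was higher for window peaks in each of the 9 pairs of a WT with a KO list. These shares were not tested. WT window peaks also had higher median widths than other WT peaks (below), and the part of width in these shares was not tested.

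Window peaks had a higher median width than other peaks in every library, by a larger factor in WT. Their median width was 2274, 2150 and 4084 bp in the WT libraries, against 1434, 1433 and 1601 bp for the other peaks of those lists. In KO it was 169, 203 and 198 bp, against 155, 181 and 172 bp. The ratio of medians was thus 1.501 to 2.55 in WT and 1.09 to 1.14 in KO, with no overlap between the lines. On the log2 scale it was 0.87 ± 0.42 in WT and 0.16 ± 0.04 in KO (SD, n = 3 each; two-sided exact permutation test, p = 0.1, the least possible; adjusted p = 0.2). Over both lines the log2 difference was 0.51 ± 0.47 and above 0 in 6 of 6 libraries (exact sign-flip permutation test, p = 0.0312; adjusted p = 0.0625).

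Of the 20 widest peaks of each list, 8, 6 and 7 were window peaks in WT and 8, 6 and 5 in KO. Of all peaks, window peaks made up 12.0, 9.16 and 12.7% in WT and 5.68, 3.72 and 5.30% in KO. The lists held 79 to 3257 peaks, so the 20 widest were unlike parts of them. The widest of all window peaks, chr21:10717115-10723389, was 6275 bp long, scored 57.1 in untreated WT and overlapped no peak of another list. In KO the median width of the other peaks was higher in the higher score classes, so widths were also compared within classes. Among WT peaks of 50 to 75 the ratio of medians was 1.53, 1.11 and 1.77, and in KO it was 1.10, 1.07 and 1.07. Among peaks of 75 to 100 it was 1.28, 2.36 and 3.95 in WT, from 6, 3 and 1 window peaks, and 0.653, 1.04 and 1.01 in KO, where window peaks of heat shock replicate 1 were the narrower ones (126 against 193 bp). Among peaks of at least 100 it was 2.42, 3.32 and 2.68 in WT, from 8, 2 and 2 window peaks, and 1.68, 1.02 and 0.919 in KO.

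**Figure D3:**
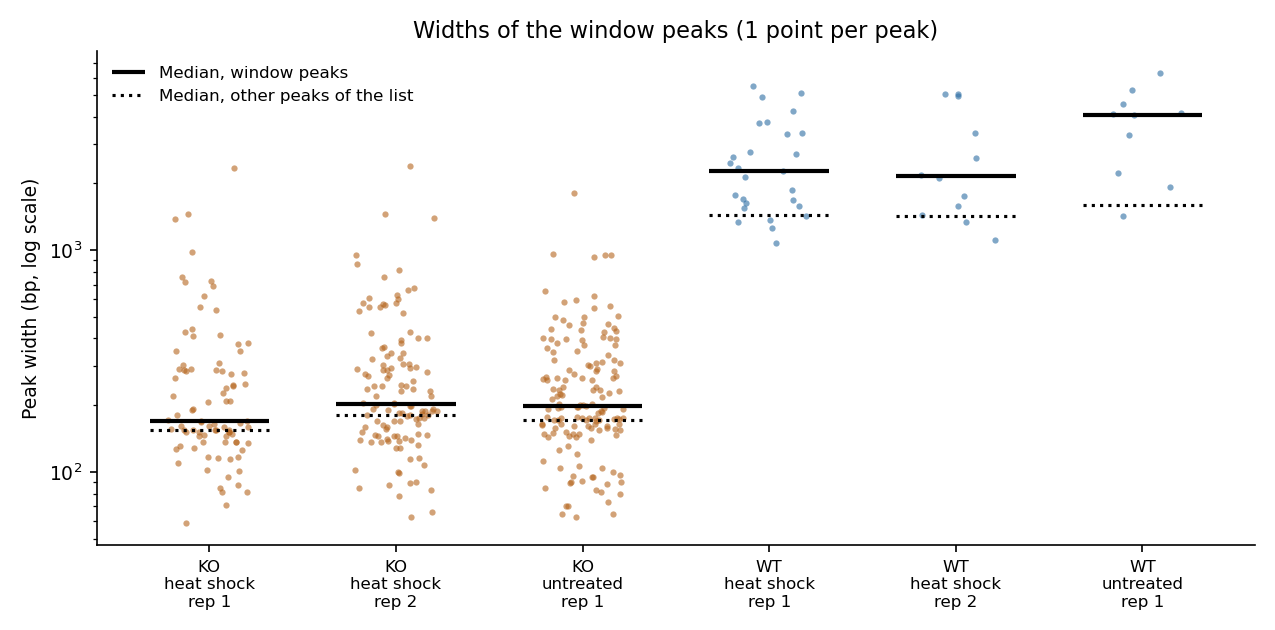
Widths of the 411 window peaks (bp, log scale) by library, 1 point per peak with random sideways spread; solid lines are medians of window peaks and dotted lines medians of the other peaks of the same list. The lines lie close together in the 3 KO libraries and apart in the 3 WT libraries, most in untreated WT (4084 against 1601 bp).

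By score, window peaks were mostly middling peaks. Their median percentile within the list (100 is the highest score) was 57.3, 68.5 and 69.1 in the KO libraries and 63.8, 58.8 and 43.7 in the WT libraries. Other peaks had medians of 47.6 to 51.3, and untreated WT was the library in which window peaks were below them. The mean difference was 11.2 ± 10.4 percentile points, above 0 in 5 of 6 libraries (SD, n = 6; exact sign-flip permutation test, two-sided, p = 0.0625; adjusted p = 0.0625). The medians of the lines overlapped (means 65.0 ± 6.60 in KO and 55.4 ± 10.5 in WT, SD, n = 3 each; two-sided exact permutation test, p = 0.3; adjusted p = 0.3). Window peaks were not overrepresented in the highest 10% of any list. The first window peak stood at rank 40, 47 and 93 in the KO lists and at rank 6, 6 and 10 in the WT lists. The lists differ in length, and as percentiles these were 97.5, 98.6 and 96.8 in KO and 97.6, 95.8 and 88.0 in WT. The highest 10% by score held 6, 8 and 10 window peaks in KO and 2, 1 and 0 in WT. These were 6.74, 6.61 and 6.58% of the window peaks in KO and 7.41, 8.33 and 0% in WT, where 10% of all peaks lie by definition. The counts are small, and the differences from 10% were not tested. Among peaks with a score of at least 100 the difference in percentile turned to −15.8, with only 8, 2 and 2 window peaks left in the WT lists.

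The leading window peak was chr1:142535218-142540183, which begins at the far border of the long peak-free stretch of chromosome 1. In WT it was a single peak of 4915, 4947 and 4568 bp with scores of 393, 274 and 179, the highest of the window peaks in each WT list. In KO it was divided into 2, 3 and 5 peaks, the best of which scored 388, 411 and 317. In both lines the heat shock scores were above the untreated one, but scores depend on the unknown depth.

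Other high-scoring window peaks were in part found in a single line. In KO, chr18:19284147-19285490 scored 293 and 803 after heat shock (ranks 67 and 47) and 311 untreated (rank 133); it was found in both WT heat shock lists (129 and 66.8) and not in untreated WT. The peak at chr7:56119231-56119728 scored 420 in untreated KO (rank 93) and 64.1 and 115 in heat-shocked KO, and it was in no WT list. Another, chr16:33293807-33294254, scored 239, 243 and 50.8 in KO and was in no WT list. In WT, chr4:49104105-49108377 scored 178, 58.3 and 74.3 and was in no KO list. Shared places were chr17:25263127-25268262, which scored 101 in untreated WT, 73.7 in WT heat shock replicate 1 and 189, 175 and 154 in KO, and chr10:42354717-42360011, which scored 90.2 in untreated WT and 106 and 76.0 in KO heat shock replicate 2 and untreated KO.

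Window peaks were found again in other lists more often than other peaks in 5 of 6 libraries. A peak of any of the other 5 lists overlapped 45 of 89, 69 of 121 and 71 of 152 window peaks in the KO libraries (50.6, 57.0 and 46.7%), against 32.8, 22.8 and 25% of all peaks of those lists. In WT the counts were 22 of 27, 11 of 12 and 9 of 10 (81.5, 91.7 and 90%), against 57.8, 64.1 and 91.1% of all peaks. Untreated WT was the exception, at the level of its list. Against other peaks alone, the mean difference was 22.2 ± 12.9 percentage points (SD, n = 6; exact sign-flip permutation test, two-sided, p = 0.0625; adjusted p = 0.0625). Among peaks with a score of at least 100 it turned to −14.7, with only 8, 2 and 2 window peaks left in the WT lists. Window peaks also had the higher median widths given above, whose part in the overlaps was not tested.

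Within a line the pattern was similar. Another KO list overlapped 37 of 89, 64 of 121 and 59 of 152 window peaks of the KO libraries (41.6, 52.9 and 38.8%), beside 31.9, 22.2 and 23.7% of all peaks. Another WT list overlapped 13 of 27, 11 of 12 and 7 of 10 of the WT libraries (48.1, 91.7 and 70%), beside 32.4, 51.9 and 68.4%. The lines overlapped, with means of 44.4 ± 7.46% in KO and 69.9 ± 21.8% in WT (SD, n = 3 each; two-sided exact permutation test, p = 0.2; adjusted p = 0.267), and the lists of a line differ in length.

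**Figure D4:**
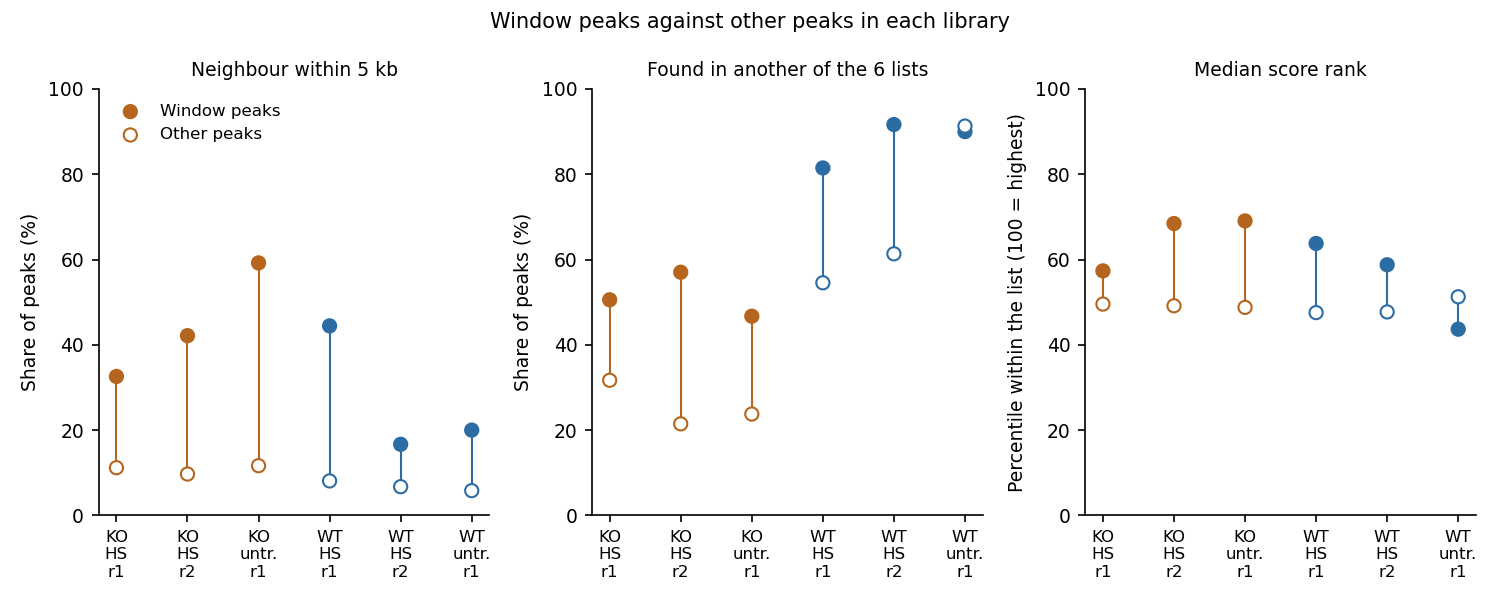
Window peaks (filled) and other peaks (open) of each library, KO in orange and WT in blue; HS is heat shock, untr. untreated and r replicate. The left and middle panels show the share (%) with a neighbour of the same list within 5 kb and the share overlapping a peak of another list, and the right panel the median score percentile; the filled point is higher in 6, 5 and 5 of 6 libraries.

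Joined over the lists, the 411 peaks fell into 253 regions, of which 184 (72.7%) had a peak in 1 list, against 88.9% of all 6597 regions. Only chr1:142535218-142540183 and chr16:33952391-33953974 had one in all 6 (2 of 253, or 0.791%, against 0.561% of all regions). The latter scored 126, 50.9 and 68.2 in WT and 125, 75.8 and 116 in KO. Peaks of every KO library and of none of WT were seen at 12 regions (4.74%, against 3.55% of all). These were led by chr21:9825449-9826436 (scores 145, 138 and 348), chr2:90485293-90485500 (152, 106 and 138) and chr9:44877873-44878090 (95.3, 136 and 88.8), whose highest score fell in a different library each time. The reverse held for 1 region, chr4:49104105-49108377, beside 0.0303% (2) of all regions.

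The last comparison asks whether window peaks changed with heat shock, and how this compares with the rest of the genome. In WT their number was 10 untreated and 27 and 12 in heat shock replicates 1 and 2, that is 2.70-fold and 1.20-fold. The other WT peaks went from 69 to 198 and 119 (2.87-fold and 1.72-fold). In KO their number was 152 untreated and 89 and 121 after heat shock (0.586-fold and 0.796-fold), while the other KO peaks went from 2714 to 1477 and 3136 (0.544-fold and 1.16-fold). The mean log2 ratio of window peaks was 0.85 ± 0.83 in WT and −0.55 ± 0.31 in KO, beside 1.15 ± 0.52 and −0.33 ± 0.77 for other peaks (SD, n = 2 against 1 library). Set against the other peaks of the same lists, window peaks changed by −0.31 ± 0.31 in WT (replicates −0.09 and −0.52) and −0.22 ± 0.45 in KO (0.11 and −0.54). In neither line did the ratio of window peaks exceed that of other peaks by more than the spread between replicates. Untreated groups have 1 library each, so there is no test. With 1 heat shock replicate alone, the ratio of window peaks was 1.43 or 0.26 in WT and −0.77 or −0.33 in KO.

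**Figure D5:**
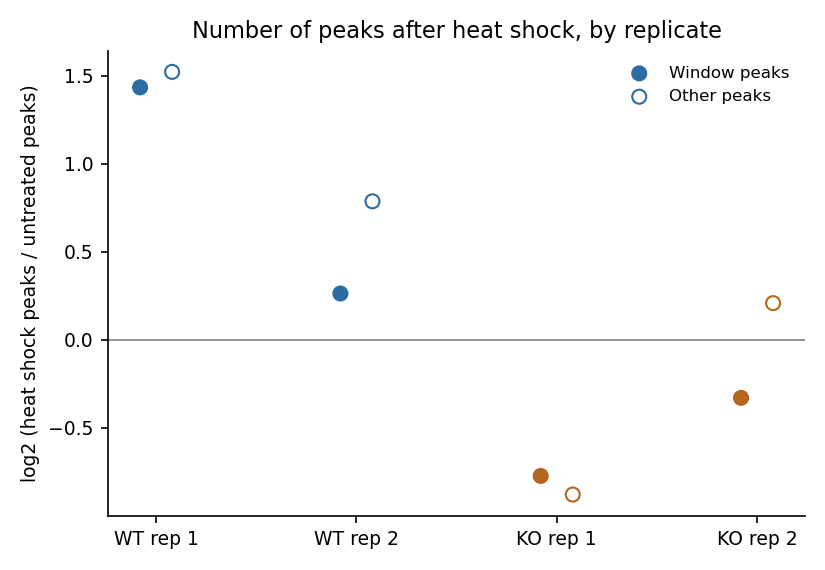
Log2 ratio of the number of peaks after heat shock to the number in the untreated list of the same line, for window peaks (filled) and other peaks (open), by line and replicate; 0 is no change. Window peaks lie at or below the other peaks in 3 of the 4 replicates, and just above them in KO replicate 1 (−0.77 against −0.88).

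The higher number in heat-shocked WT rested on chromosome 21 in part in replicate 1 and wholly in replicate 2. Its window went from 1 peak untreated to 9 and 5 in heat shock replicates 1 and 2, and without it the mean log2 ratio in WT was 0.32. Without it WT had 9 window peaks untreated and 18 and 7 after heat shock, so the log2 ratio was 1.00 in replicate 1 and turned to −0.36 in replicate 2. The peaks added on chromosome 21 lay mostly in chr21:11051305-11187341, described above, where untreated WT had 0 peaks and untreated KO had 28. Over windows, both WT heat shock lists exceeded the untreated list in 3 of 13 and were below it in 0. In KO both were below the untreated list in 8 of 13 and above it in 2, which were the chr4 and chr18 windows.

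Most window peaks after heat shock had no untreated partner at the same place. In WT heat shock replicates 1 and 2, 6 of 27 and 4 of 12 overlapped an untreated WT peak (22.2 and 33.3%), against 22.2 and 34.4% of all peaks, so they were at the level of their lists. In KO, 25 of 89 and 53 of 121 overlapped an untreated KO peak (28.1 and 43.8%), against 26.4 and 19.7% of all peaks. Replicate 2 was thus above its list and replicate 1 close to it.

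Regions held by both lists of heat-shocked WT but missing from untreated WT numbered 7 of 253 (2.77%, against 0.349% of all regions). They were led by chr2:91813895-91819614 (scores 148 and 95.2 in replicates 1 and 2), chr21:11143321-11147071 (103 and 83.3), chr21:11185744-11187341 (103 and 72.4), chr4:49108776-49111049 (75.3 and 67.2) and chr21:11129316-11131299 (87.8 and 67.0). Untreated KO had a peak at 4 of these 5, all but chr21:11185744-11187341, which was in no KO list. The opposite, a peak in untreated WT and in neither heat shock list, was seen at 3 (1.19%, against 0.379%): chr10:42354717-42360011, chr4:49120145-49123451 and chr21:10717115-10723389. Window peaks made up a larger part of the WT than of the KO lists, so any class set by WT peaks can be larger among these regions. The excess of either class thus does not by itself measure change with heat shock.

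In KO, 8 of 253 regions had a peak in both heat shock lists and not in untreated KO (3.16%, against 1.00% of all). The leader was chr16:33241062-33241232 (74.8 and 108 in replicates 1 and 2), followed by chr20:29612224-29612370, chr4:49156108-49156395, chr16:33901599-33901796 and chr21:11127820-11129245, with scores of 54.8 to 82.6. The last of these overlapped a WT peak as well (heat shock replicate 1, 82.8). In each KO list, window peaks overlapped a peak of another KO list more often than all peaks did (above). A class that needs a peak in 2 KO lists can thus be larger among these regions. Its excess does not by itself measure change with heat shock. A peak in untreated KO and in neither KO heat shock list was seen at 83 (32.8%, against 32.7%), led by chr21:9826670-9827605 (189), which adjoins the KO region at chr21:9825449-9826436, and chr16:33924415-33924858 (145).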

How the data were processed

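Peak lists of 6 HSF1 ChIP-seq libraries were used; the 4 input libraries were not analysed here. Lists give chromosome, start, end, name and the authors' deposited peak score, lowest at 50.0 to 50.4 in each list. The submitters' processing notes list CASAVA, Bowtie 0.12.7, MACS 1.4.2 and hg19 but give no settings. Each library was called against the input of its line and condition, per the file labels. Members and lists were chosen with earlier results of these data known.

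Peaks were counted as listed. Overlap means at least 1 bp, checked with bedtools 2.31.1. Libraries were compared with exact permutation tests (numpy 2.4.6, scipy 1.17.1, pandas 2.3.3, matplotlib 3.10.9, Python 3.11.15). The contrasts of the lines were planned; the tests of window against other peaks over 6 libraries, the 5 kb neighbours and the clusters were added after the data were seen. Counting was tested on 20 simulated sets, and 20 gave the planted answers. Regions named are those in all 6 lists, of 1 line or of 1 condition, by rank or score, and the 3 highest and the widest peak of each list. No gene or sequence was assigned, since the tables used here are of another build (GRCh38). Over 13 windows, the differences between replicates 1 and 2 of the lines correlated at −0.27 (log2 of count plus 1), and the labels give no shared batch.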

Additional observations from a re-analysis of the deposited data

Results flagged for a closer look

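After heat shock the number of window peaks moved in opposite directions in the lines. The log2 ratio to untreated was 1.43 and 0.26 in WT replicates 1 and 2, and −0.77 and −0.33 in KO replicates 1 and 2. Without the chromosome 21 window the ratio in WT replicate 2 was −0.36, so the lines no longer parted, and the covered length in that library was 0.872-fold that of untreated WT with all windows. The other peaks also parted in the mean (1.15 in WT and −0.33 in KO). They did not part in each replicate, since the ratio in KO replicate 2 was above 0 (0.21). Neither the difference between the lines nor that between window and other peaks was tested, and each pair of ratios shares its untreated list.

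The median score percentile of window peaks moved in opposite directions as well. Heat shock minus untreated was 20.1 and 15.1 percentile points in WT replicates 1 and 2, and −11.7 and −0.61 in KO replicates 1 and 2. Untreated WT gave its median from 10 peaks. The difference was not tested.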

How the results depend on the processing

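The lower share of window peaks in KO and the smaller width ratio in KO kept their direction under all 16 and 14 alternatives tried. Among these, pairing libraries by replicate, as numbered or crossed, changes only the p-value and could not change a direction. With a score of at least 100, 4 results reversed: the percentile difference of KO and WT became −14.1, the difference in peaks found in the same line 14.2, and the differences between window and other peaks −15.8 in percentile and −14.7 in share found elsewhere; the cause was not tested. Under that filter the WT lists held only 8 and 2 window peaks after heat shock and 2 untreated. The KO heat shock ratio was then −0.90, with 10 and 26 window peaks after heat shock and 30 untreated. Window against other peaks passed an adjusted p of 0.05 in 3 of 13 alternatives for width, neighbours and share found elsewhere, and in 1 of 13 for percentile. Passing depended on how many of the 4 measures had the same sign in all 6 libraries, which share the same genome and stretches. Without the chromosome 21 window the differences were 0.58 in log2 width, 25.9 points in neighbours and 25.1 in share found elsewhere. Against peaks of the 13 chromosomes only they were 0.50, 29.0 and 28.5, with 17.3 in percentile. Without peaks within 100 kb of the longest peak-free stretches between peaks they were 0.40, 36.6 and 24.1. With the replicate number as a replicate block, differences of the lines were as before (share −6.37 points) and the smallest p was 0.25. As the replicate differences correlated negatively, crossed pairs were also tried, and 0 of 4 contrasts passed, as none could with 3 pairs. Unknown depth limits what a missing peak means.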
